A study of Homo sapiens with 2 samples.

Results

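In A549 cells examined after silencing of p62/SQSTM1, 88 of the 14884 genes named on the array were taken by symbol. The symbols are those of MAP kinase cascades, of phosphatases and Sprouty proteins that restrain them, and of immediate early genes that they induce. Of the 88 genes, 12 are scaffolds and other matches by symbol alone, and 14 are dual-specificity phosphatases that mostly act on other substrates. All 88 were chosen among probe sets with a single gene symbol, as the genes whose name begins with MAP2K, MAP3K, MAP4K, MAPK, DUSP, SPRY, SPRED, EGR or IER and a digit, or with FOS or JUN. Where a gene had several probe sets, the one with the highest mean of both arrays was read. A gene was counted as measured if the higher of its values was 5.35 or more on the log2 scale, the median of the values of all named probe sets. This held for 66 of the 88 genes and for 7896 of all named genes (53.1%).

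The siP62 sample came from A549 cells that received an siRNA against p62/SQSTM1, and the siCONTROL sample from A549 cells that received a control siRNA. RNA was taken 24 hours after transfection, and each group held 1 Affymetrix whole-transcript array. A549 is an established line of human lung adenocarcinoma. The sources used here give neither the siRNA sequences nor their number, nor whether the samples came from separate cultures. With 1 array per group there was no spread within a group, no test between the groups and no p-value. Every difference below is the siP62 value minus the siCONTROL value on the log2 scale and compares these 2 arrays only.

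MAP kinases are activated through tiers of kinases. A MAP3K phosphorylates a MAP2K, which phosphorylates a MAP kinase on a threonine and a tyrosine, and MAP4Ks act above them. Dual-specificity phosphatases of the MKP class remove those phosphates, and Sprouty proteins restrain signalling from growth factor receptors to RAF. The cascades act on transcription factors such as AP-1, a dimer of FOS and JUN family proteins, and on immediate early genes, which are switched on soon after a stimulus without new protein synthesis. p62 has a PB1 domain that binds other PB1 proteins, MAP2K5 and MAP3K3 among them.

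SQSTM1, the target of the siRNA, had 7.30 in siP62 cells and 8.64 in siCONTROL cells, which left 39.5% of the control level. Over all measured genes the median difference was 0.04 and the robust SD (scaled median absolute deviation) was 0.22, a spread over genes and not an error between replicates. The epithelial markers EPCAM, KRT8, KRT18 and KRT19 were measured and differed by 0.02 to 0.21. The endothelial markers PECAM1, VWF and KDR and the fibroblast marker DCN lay below the limit in both arrays. LUM, another fibroblast marker, had 5.49 in siP62 cells and 5.02 in siCONTROL cells, and CD68, a lysosomal protein used to mark macrophages, had 8.42 in siP62 cells and 8.48 in siCONTROL cells. Their part in the results below was not tested.

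As a set, these genes differed little between the arrays. Their median difference was 0.075 over the 66 measured members, against 0.04 over all measured genes. Of the 66 members, 41 (62.1%) were higher in siP62 cells, 24 lower and 1 equal, against 55.4% higher among all measured genes. Once set against the median of all genes, 36 members (54.5%) lay above 0.04. MAP2K1, MAP3K14 and MAP4K5, higher by 0.01 to 0.02, are lower once that median is subtracted. No member differed by 2-fold, which 0.165% of all measured genes did upwards and 0.228% downwards. At 1.5-fold, 1 member was higher and 1 lower, each 1.52% of the members, against 2.08% of all measured genes higher and 1.6% lower. At a log2 difference above 0.32 in either direction, 6 members were higher (9.09%, against 11.3% of all measured genes) and 5 lower (7.58%, against 7.13%). These shares lay near the background, so the counts are not a result about these genes. The plot of difference against level shows the members inside the cloud of all measured genes.

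**Figure D1:**
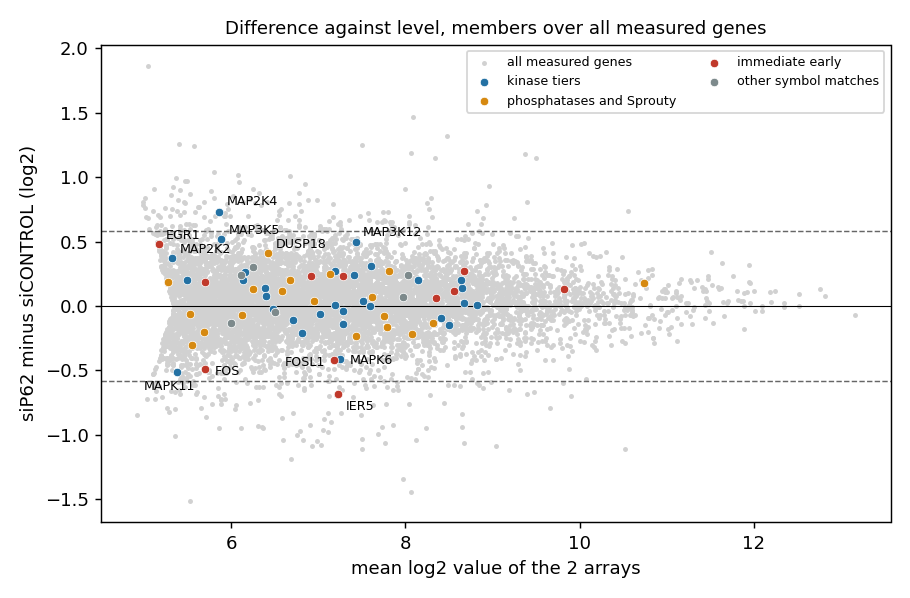
Difference between the siP62 and siCONTROL arrays (log2, vertical axis) against the mean log2 value of both arrays (horizontal axis) for the 7896 measured genes in grey and the 66 measured members in colour by role. Dashed lines mark 1.5-fold, and names mark the 11 members that differ by more than 0.32, with MAP2K4 alone above the upper line and IER5 alone below the lower one.

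Of the members, 22 lay below the limit in both arrays and are not counted as measured. Among them were the kinases MAP3K19, MAP4K1, MAPK4, MAPK10, MAPK13 and MAPK15, the phosphatases DUSP2, DUSP9, DUSP13A, DUSP19, DUSP21, DUSP26, DUSP28 and DUSP29, and the immediate early genes EGR3 and EGR4. The other 6 were the JNK scaffold gene MAPK8IP1, MAP3K7CL, the pseudogene MAP2K4P1 and the noncoding transcripts JUN-DT, MAP3K20-AS1 and MAP4K3-DT. Their values ran from 2.03 to 5.27 in siP62 cells and from 2.29 to 5.34 in siCONTROL cells. Just outside the limit stood DUSP9, with 5.24 in siP62 cells and 5.34 in siCONTROL cells, and MAPK15, with 4.96 in siP62 cells and 5.31 in siCONTROL cells. Just inside it stood SPRY3, with 5.37 in siP62 cells and 5.18 in siCONTROL cells, and EGR1, with 5.41 in siP62 cells and 4.93 in siCONTROL cells. For SPRY3, EGR1 and MAP2K2 only the siP62 value reached the limit, and for MAPK11 only the siCONTROL value did, so the size of these 4 differences is uncertain.

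The tier of MAP4Ks held 2 measured genes. MAP4K4, a kinase upstream of JNK, had 8.43 in siP62 cells and 8.58 in siCONTROL cells, a difference of -0.15. MAP4K5 had 8.68 in siP62 cells and 8.66 in siCONTROL cells. Neither difference exceeded the spread over all measured genes.

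Of the 17 MAP3Ks named on the array, MAP3K1 not among them, 16 were measured. In siP62 cells 10 were higher and 6 lower, with a median difference of 0.11. With the limit at the 70th percentile of the values (6.67) the median was 0.01 over 11 genes, 6 higher and 5 lower. MAP3K5, the stress-activated kinase ASK1 that feeds JNK and p38, had 6.15 in siP62 cells and 5.63 in siCONTROL cells, which is 1.43-fold higher. MAP3K12, the dual leucine zipper kinase DLK of JNK signalling, had 7.68 in siP62 cells and 7.18 in siCONTROL cells, or 1.41-fold higher. These were the only MAP3Ks that differed by more than 0.32. MAP3K8, the kinase TPL2 that activates MAP2K1, followed at 0.24, with 7.53 in siP62 cells and 7.29 in siCONTROL cells. MAP3K7, known as TAK1 and shared by the NF-kB and JNK pathways, stood at 8.24 in siP62 cells and 8.04 in siCONTROL cells. MAP3K6, MAP3K7, MAP3K15 and MAP3K21 each differed by 0.20. MAP3K20, the ribotoxic stress sensor ZAK, differed by 0.14, and MAP3K10 by 0.08.

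At the other end of this tier, MAP3K4, which acts on p38 and JNK, had 6.71 in siP62 cells and 6.92 in siCONTROL cells, a difference of -0.21. The mixed lineage kinase MAP3K11 differed by -0.14 and MAP3K9 by -0.06. MAP3K13, a close relative of MAP3K12, had 6.47 in siP62 cells and 6.49 in siCONTROL cells, a difference of -0.02. The related pair MAP3K12 and MAP3K13 thus differed unequally. MAP3K14, the NF-kB inducing kinase NIK, had 7.20 in siP62 cells and 7.19 in siCONTROL cells. A transcript antisense to its gene, MAP3K14-AS1, was 0.30 higher, with 6.40 in siP62 cells and 6.10 in siCONTROL cells.

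The MAP2K tier had a median of 0.225 over the 6 genes named on the array, all of them measured. Of these, 5 were higher and 1 lower, or 4 above and 2 below the median of all genes. MAP2K7 was not among the named genes and was not analysed here. MAP2K4 (probe set 16831203), the kinase MKK4 that activates JNK and p38, had 6.23 in siP62 cells and 5.50 in siCONTROL cells. It was 1.66-fold higher, the highest difference of all members, while the robust SD over genes of like level was 0.22. Its pseudogene MAP2K4P1 had 3.05 in siP62 cells and 3.52 in siCONTROL cells, both below the limit, and probes shared by the pair were not checked. MAP2K2, which activates ERK1, was 1.29-fold higher, with 5.51 in siP62 cells and 5.14 in siCONTROL cells. Its partner kinase MAP2K1 hardly differed, with 8.83 in siP62 cells and 8.82 in siCONTROL cells.

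The MAP2Ks of p38 went different ways. MAP2K6 had 7.76 in siP62 cells and 7.45 in siCONTROL cells, a difference of 0.31, and MAP2K3 had 6.66 in siP62 cells and 6.77 in siCONTROL cells, a difference of -0.11. The tier's median rested in part on genes of low signal. It was 0.14 over 5 genes without MAP2K2, which reached the limit only in siP62 cells. With the limit at the 70th percentile of the values it was 0.01 over MAP2K1, MAP2K3 and MAP2K6, and MAP2K4 was no longer counted.

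Of the MAP kinases themselves, 6 of 10 were measured, with 3 higher, 2 lower and 1 equal. Their median difference was 0.02, and it turned to -0.02 once the median difference of all genes was subtracted. MAPK3, which encodes ERK1, had 7.60 in both arrays. MAPK9, which encodes JNK2, had 7.54 in siP62 cells and 7.50 in siCONTROL cells. MAPK9 is a substrate of the kinase that MAP2K4 encodes, and it differed by 0.04 where MAP2K4 differed by 0.73. MAPK7, which encodes ERK5, differed by 0.27, with 7.33 in siP62 cells and 7.06 in siCONTROL cells. The p38 genes split, as p38 gamma (MAPK12) had 6.29 in siP62 cells and 6.03 in siCONTROL cells while p38 beta (MAPK11) had 5.12 in siP62 cells and 5.63 in siCONTROL cells, or 1.42-fold lower. MAPK6, the atypical kinase ERK3, was 1.33-fold lower, with 7.05 in siP62 cells and 7.46 in siCONTROL cells. MAPK6 is not a substrate of the classical MAP2Ks.

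**Figure D2:**
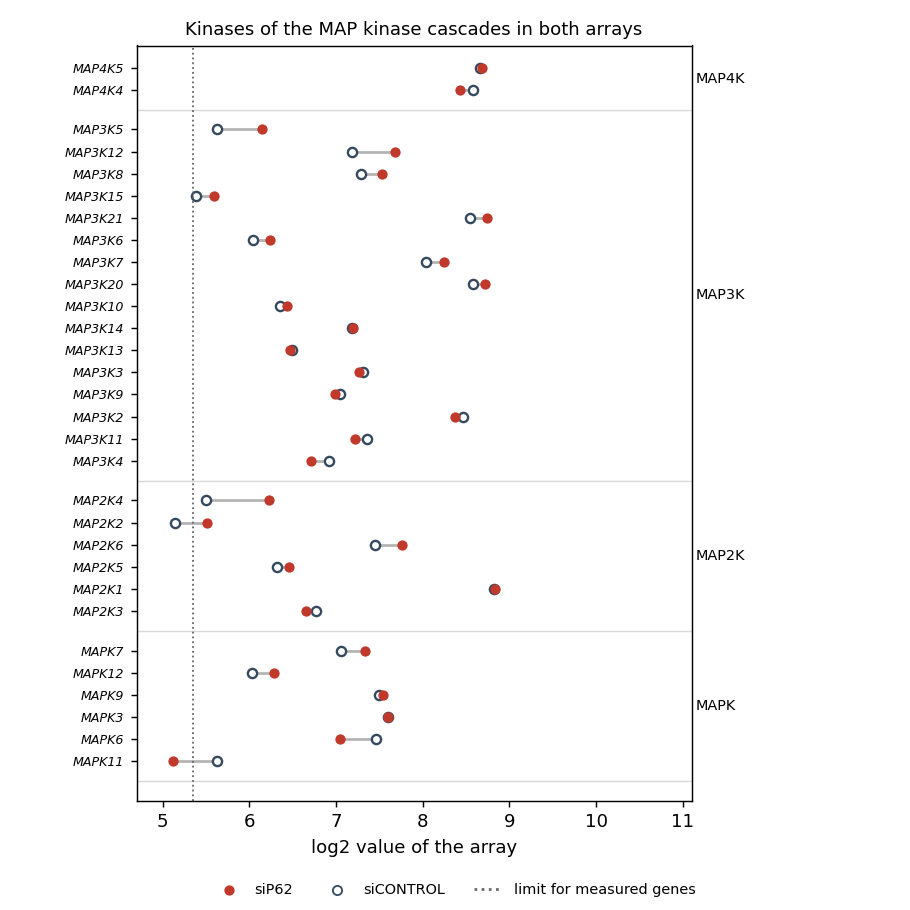
Log2 values (horizontal axis) of the 30 measured kinases of the 4 tiers, grouped by tier, with 1 filled point for the siP62 array and 1 open point for the siCONTROL array. MAP2K4, MAP3K5 and MAP3K12 lie furthest to the right of their siCONTROL points, and MAPK11 and MAPK6 furthest to the left.

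MAP3K2, MAP3K3 and MAP2K5, the kinases above ERK5, carry PB1 domains, as p62 does. These MAP3Ks differed little, with 7.27 in siP62 cells and 7.31 in siCONTROL cells for MAP3K3, and 8.37 in siP62 cells and 8.46 in siCONTROL cells for MAP3K2. MAP2K5 differed by 0.14, with 6.46 in siP62 cells and 6.32 in siCONTROL cells. None of the 4 genes of this module, MAPK7 included, differed by more than 0.32, and their median difference was 0.05. Of the other 14 PB1 and p62 signalling partners listed, 6 were named on the array and 5 measured, with 2 higher and 3 lower and a median of -0.10. Among them the polarity genes PARD6B and PARD6A, whose products bind atypical protein kinase C, differed by 0.21 and -0.12, and KEAP1, the repressor of NRF2, by -0.28.

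The rule also took in scaffolds and other genes whose names only begin like those of a kinase. The JNK scaffolds MAPK8IP2 and MAPK8IP3 differed by -0.13 and -0.05. MAPK1IP1L differed by 0.24 in each of its 2 probe sets. IER3IP1, an endoplasmic reticulum protein and not an immediate early gene, differed by 0.07. The pseudogene MAPK8IP1P2 had 6.24 in siP62 cells and 6.0 in siCONTROL cells in 3 probe sets of identical values, while its other probe set, below the limit, went the other way by -0.17. Leaving these genes out kept the median difference of the members at 0.075.

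The phosphatases that act on MAP kinases were mostly lower in siP62 cells. Of 10 genes of the MKP class, 8 were measured, and 6 were lower and 2 higher, with a median of -0.165. Among all 7896 measured genes, 3303 were lower and 4378 higher. None of the 8 MKP genes differed by more than 0.32. DUSP8, which acts on JNK and p38, differed most, with 5.40 in siP62 cells and 5.70 in siCONTROL cells. DUSP16, another JNK phosphatase, had 7.32 in siP62 cells and 7.55 in siCONTROL cells. The nuclear phosphatase DUSP4, an ERK-induced feedback gene, had 7.97 in siP62 cells and 8.19 in siCONTROL cells. Among the phosphatases selective for ERK, DUSP7 differed by -0.20, DUSP5 by -0.13 and DUSP6 by -0.07. DUSP6, a common readout of ERK activity, had 6.09 in siP62 cells and 6.16 in siCONTROL cells. A second probe set of DUSP5 went the other way, with 5.56 in siP62 cells and 5.32 in siCONTROL cells. Averaged over both, DUSP5 had 6.90 in siP62 cells and 6.85 in siCONTROL cells. With such averages the class held 5 lower and 3 higher genes. The probe sets of DUSP5 shared no direction, and which of them reads its mRNA is not known here, so the average does not settle its direction.

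The exceptions in the MKP class were DUSP1 and DUSP10. DUSP1, an immediate early gene whose product inactivates p38 and JNK, had 10.83 in siP62 cells and 10.65 in siCONTROL cells. DUSP10 had 6.97 in siP62 cells and 6.93 in siCONTROL cells, a difference equal to the median of all genes.

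The other dual-specificity phosphatases, which are small and mostly act on other substrates, had a median of 0.10 over 8 of 14 genes, with 5 higher and 3 lower. DUSP18 was 1.33-fold higher, with 6.63 in siP62 cells and 6.22 in siCONTROL cells. DUSP11, an RNA phosphatase, differed by 0.27 and DUSP12 by 0.20. DUSP22, DUSP23, DUSP15 and DUSP14 lay between -0.08 and 0.13. DUSP3, known as VHR and active on ERK and JNK, had 7.71 in siP62 cells and 7.87 in siCONTROL cells, a difference of -0.16.

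The Sprouty genes SPRY2 and SPRY4 were slightly higher in siP62 cells. SPRY4 had 7.26 in siP62 cells and 7.01 in siCONTROL cells, and SPRY2 had 6.64 in siP62 cells and 6.52 in siCONTROL cells. SPRY3, which reached the limit only in siP62 cells, differed by 0.19, and a second probe set of it, below the limit, by 0.62. Sprouty genes and DUSP4 to DUSP6 are induced by ERK as feedback inhibitors, and here the values of SPRY2 and SPRY4 were higher and those of DUSP4 and DUSP6 lower. Neither direction was tested. No SPRED gene was among the named genes, and none was analysed here.

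Of 13 EGR, FOS, JUN and IER genes, grouped by symbol as immediate early genes, 11 were measured. In siP62 cells 8 were higher (72.7%, against 55.4% of all measured genes) and 3 lower, with a median of 0.13 and a mean of 0.011. Without EGR1 and FOS, whose probe sets had opposite signs, 7 were higher and 2 lower, with a median of 0.13. IER5 (probe set 16674618), which encodes a nuclear protein that binds the phosphatase PP2A and the heat shock factor HSF1, had 6.89 in siP62 cells and 7.57 in siCONTROL cells. It was 1.60-fold lower, the lowest difference of all members, while the robust SD over genes of like level was 0.24. Its relatives by name went the other way, with 7.03 in siP62 cells and 6.80 in siCONTROL cells for IER2, and 9.88 in siP62 cells and 9.75 in siCONTROL cells for IER3. The 11 probe sets of IER3 held 3 distinct pairs of values and differed by 0.07 to 0.13.

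In the AP-1 family, the genes of the JUN proteins were all higher and those of the FOS proteins were mixed. JUND had 8.81 in siP62 cells and 8.54 in siCONTROL cells, JUN 7.40 in siP62 cells and 7.17 in siCONTROL cells, and JUNB 8.62 in siP62 cells and 8.50 in siCONTROL cells. Each of them differed by 0.12 to 0.27. FOSL1, which encodes FRA-1, an AP-1 subunit whose gene responds to sustained ERK activity, was 1.34-fold lower, with 6.97 in siP62 cells and 7.39 in siCONTROL cells. FOSL2, which encodes FRA-2, had 8.38 in siP62 cells and 8.32 in siCONTROL cells. FOSB had 5.80 in siP62 cells and 5.61 in siCONTROL cells. Over the 7 genes 5 were higher and 2 lower, and the median was 0.12.

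FOS and EGR1, the most used immediate early readouts, were each read by 2 probe sets that differed in opposite directions. The annotation used here does not give the strand a probe set reads, so for FOS, EGR1 and DUSP5 one probe set of each pair may not read the gene's mRNA, which also limits their averages. FOS had 5.46 in siP62 cells and 5.95 in siCONTROL cells in the probe set that stood for it, or 1.40-fold lower, and 5.22 in siP62 cells and 5.05 in siCONTROL cells in its other probe set. Averaged over both, its difference was -0.16. EGR1, a zinc finger factor induced through ERK, was 1.39-fold higher in the probe set that stood for it, while the other probe set had 4.13 in siP62 cells and 4.53 in siCONTROL cells. The averages of EGR1, 4.77 in siP62 cells and 4.73 in siCONTROL cells, lay below the limit. All EGR1 values were low, so neither gene gave a direction that its probe sets shared. In all, 4 of the 10 members with several probe sets had probe sets of opposite sign, namely DUSP5, EGR1, FOS and MAPK8IP1P2.

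**Figure D3:**
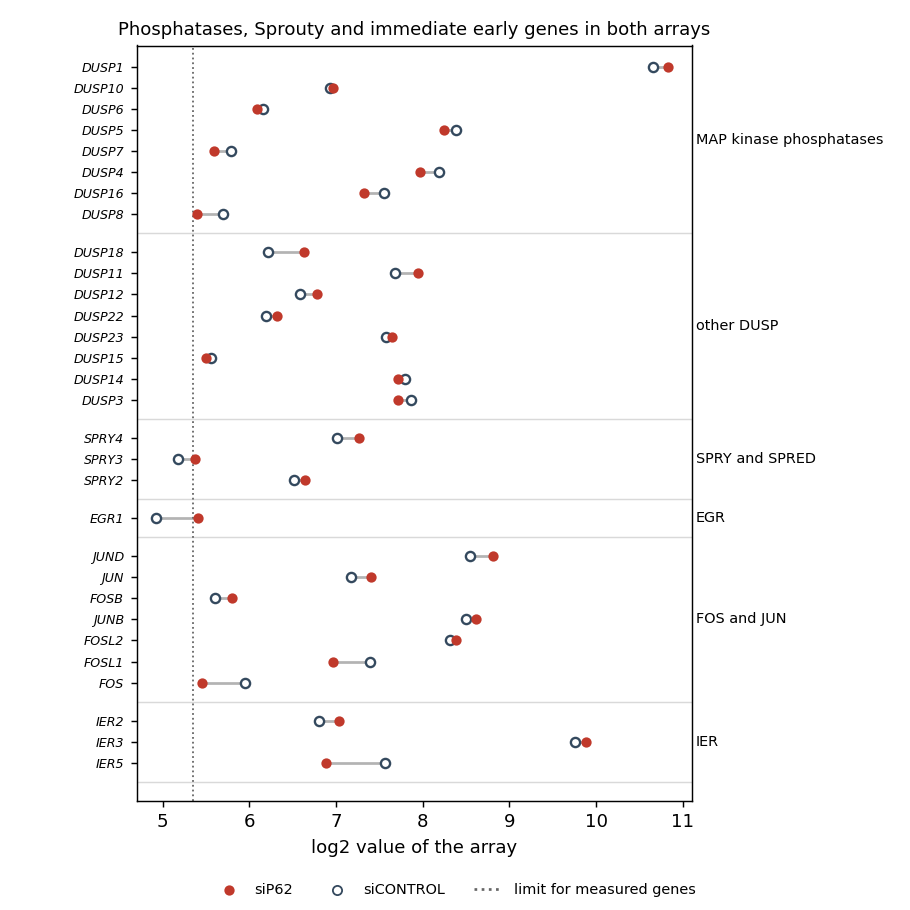
Log2 values (horizontal axis) of the measured phosphatases, Sprouty genes and immediate early genes, with 1 filled point for the siP62 array and 1 open point for the siCONTROL array. Of the MKP class 6 of 8 genes have the siP62 point to the left, SPRY2 and SPRY4 have it to the right, and IER5 has the widest gap.

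The promoters of MAP2K4, IER5, EGR1 and FOS are shown, since EGR1 and FOS are classical endpoints of MAP kinase signalling and MAP2K4 and IER5 had the highest and lowest difference. Each sequence is the 250 bases before the transcription start in RefSeq on GRCh38.p14, 5′ to 3′ along the gene, with matches to any of 5 motifs in capitals. The motifs, searched on both strands, were the AP-1 site TGANTCA, the cyclic AMP response element TGACGTCA, the ETS site CCGGAAG, the EGR site GCGNGGGCG and the CArG box bound by serum response factor.
MAP2K4 (chr17:12020627-12020876, + strand): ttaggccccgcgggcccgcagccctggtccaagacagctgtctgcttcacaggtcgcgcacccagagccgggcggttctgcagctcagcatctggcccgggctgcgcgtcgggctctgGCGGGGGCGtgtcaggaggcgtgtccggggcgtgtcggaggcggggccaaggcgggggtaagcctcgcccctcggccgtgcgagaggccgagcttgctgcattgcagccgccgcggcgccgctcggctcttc
IER5 (chr1:181088450-181088699, + strand): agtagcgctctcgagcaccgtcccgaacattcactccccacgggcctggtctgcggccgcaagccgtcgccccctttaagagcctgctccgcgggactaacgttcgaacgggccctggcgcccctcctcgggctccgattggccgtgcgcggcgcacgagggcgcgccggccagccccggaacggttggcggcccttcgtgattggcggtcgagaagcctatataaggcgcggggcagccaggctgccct
EGR1 (chr5:138465229-138465478, + strand): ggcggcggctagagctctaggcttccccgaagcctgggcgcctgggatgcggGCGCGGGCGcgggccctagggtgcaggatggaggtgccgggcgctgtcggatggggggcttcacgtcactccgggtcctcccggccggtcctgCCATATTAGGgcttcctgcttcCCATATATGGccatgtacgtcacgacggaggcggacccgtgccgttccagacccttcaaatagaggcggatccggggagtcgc
FOS (chr14:75278578-75278827, + strand): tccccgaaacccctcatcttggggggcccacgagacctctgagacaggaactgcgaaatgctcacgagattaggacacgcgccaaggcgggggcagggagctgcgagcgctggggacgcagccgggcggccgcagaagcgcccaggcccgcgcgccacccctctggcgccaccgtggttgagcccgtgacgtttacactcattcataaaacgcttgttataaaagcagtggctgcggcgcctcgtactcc
In EGR1 the capitals mark 2 CArG boxes, CCATATTAGG at 105 to 96 and CCATATATGG at 83 to 74 bases before the start, and 1 EGR site. In MAP2K4 they mark 1 EGR site, and the windows of IER5 and FOS hold none of the 5 motifs. Sites outside the 250 bases and variants of the letters searched were not looked for, so a window without a match does not show that a promoter lacks such sites. No match shown overlaps another.

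Promoter windows were listed for 58 of the 66 measured members, and for genes with several the first was read. The CArG box was found in 1 of the 58, EGR1, or 1.72%, against 1.14% of all 27305 promoters. The AP-1 site was in 1.72% of the members' windows, that of MAP2K3, against 6.6% of all. The cyclic AMP response element was in 5 members, DUSP1, DUSP8, JUND, MAP3K13 and MAPK8IP3, or 8.62%, against 1.77% of all. DUSP1 and JUND were higher in siP62 cells, whereas DUSP8, MAP3K13 and MAPK8IP3 were lower. The ETS site was in 10.3% of the members' windows against 8.82% of all, and the EGR site, rich in G and C, in 24.1% against 8.25%. The members' windows had a median GC content of 71.2%, against 58.0% over all promoters. These matches are letters in a window and not shown to be bound.

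The genes around the cascades were read from 6 lists of 133 genes, of which 77 were named on the array and 65 measured. At the level of RAS and RAF, 13 genes were measured, with 7 higher and 6 lower and a median of 0.04, that of all genes. SHOC2, a scaffold that helps RAF to be dephosphorylated and activated, was 1.68-fold lower, with 8.07 in siP62 cells and 8.82 in siCONTROL cells. It was the only gene of that list that differed by more than 0.32. The adaptor GRB2 differed by 0.28 and the RAS GTPase-activating protein RASA2 by -0.24. Of 28 genes listed at this level 9 were not among the named genes and were not analysed here.

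The kinases downstream of the MAP kinases were higher in 5 of 5 measured genes, with a median of 0.17. Of these, 4 lay above the median of all genes, and among all measured genes 55.4% were higher. Only 5 of the 11 kinases listed were named on the array, and the rest were not analysed here. MKNK1, near the limit, had 5.43 in siP62 cells and 5.40 in siCONTROL cells. MAPKAPK5, a kinase that binds the atypical kinase ERK3, was 1.43-fold higher, with 8.90 in siP62 cells and 8.38 in siCONTROL cells. MAPKAPK2, the main p38 effector, differed by 0.23 and MKNK2, which phosphorylates the cap-binding protein eIF4E, by 0.17. Thus MAPKAPK5 was higher and MAPK6, its partner kinase, lower in siP62 cells.

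Transcription factors downstream of the cascades were higher in 3 of 15 genes and lower in 11, with a median of -0.06. ETV5, an ETS factor induced by ERK, was 1.39-fold lower, with 6.04 in siP62 cells and 6.52 in siCONTROL cells. Its relative ETV4 had 8.24 in both arrays, and another relative, ETV1, differed by 0.31. SRF, the factor that binds CArG boxes, had 8.11 in siP62 cells and 8.12 in siCONTROL cells, and TCF3 differed by -0.23.

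Genes known as outputs of ERK, some of which stand in other lists too, were lower in 9 of 16 measured cases. Another 6 were higher (37.5%, against 55.4% of all measured genes) and 1 equal, and the median over the 16 was -0.115. IL11, a cytokine gene, was 1.69-fold lower, with 7.66 in siP62 cells and 8.42 in siCONTROL cells. ERRFI1, a feedback inhibitor of the EGF receptor, differed by -0.37, and CCND1, the cyclin D1 gene, had 8.96 in siP62 cells and 9.14 in siCONTROL cells. EREG, a ligand of the EGF receptor, went the other way by 0.30. IL11 was the only gene of this list past 1.5-fold, and ETV5 and ERRFI1 were the others that differed by more than 0.32.

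Immediate early genes outside the member families had a median of -0.04 over 18 measured cases. They were lower in 11 and higher in 7 (38.9%, against 55.4% of all measured genes). Of the members of that kind, 7 of the 9 other than EGR1 and FOS were higher. The salt-inducible kinase gene SIK1 was 1.40-fold higher, with 10.29 in siP62 cells and 9.80 in siCONTROL cells. PTGS2, the inducible cyclooxygenase, differed by 0.41, and KLF6, a Krüppel-like factor, by -0.43. MYC had 8.46 in siP62 cells and 8.68 in siCONTROL cells. The immediate early genes thus did not share a direction between the arrays, as the plot by role shows.

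**Figure D4:**
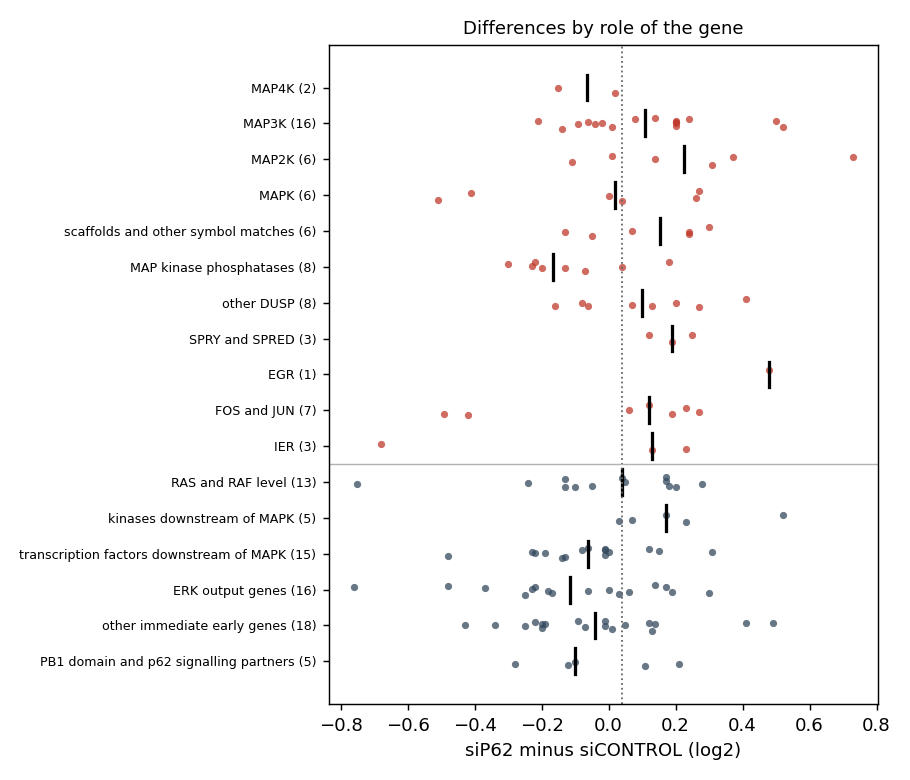
Difference between the siP62 and siCONTROL arrays (log2, horizontal axis) of each measured gene, with the member families above the grey line and the 6 lists of other pathway genes below it, the number of genes in brackets, and a black bar at each median. The dotted line is the median of all measured genes, 0.04. To the left of it lie the medians of the MKP class (-0.165), the ERK output genes (-0.115) and the PB1 and p62 partners (-0.10). Those of the MAP4Ks (-0.065), the transcription factors (-0.06), the other immediate early genes (-0.04) and the MAP kinases (0.02) also lie there.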

How the data were processed

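The deposited values, log2 signals of 48226 probe sets on 2 arrays, were made with RMA and Transcriptome Analysis Console 4.0.2.15, per the submitters' processing notes. These notes name no genome build and do not say which arrays were normalized together. As RMA usually makes the distributions of arrays alike, a shift common to all genes might not be seen. The values spanned 1.32 to 13.75 in siP62 cells and 1.16 to 13.75 in siCONTROL cells, as log2 values do. Scanner files and detection calls were not used here. The number of arrays limits the precision.

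The platform annotation gave 1 gene symbol for 16098 probe sets and none for 32128, which entered no comparison. All 88 member identifiers were found in the RefSeq table of GRCh38.p14, and 0 symbols changed. Values were processed with Python 3.11.15, pandas 2.3.3 and numpy 2.4.6, and counting and centring were tested on simulated data. The robust SD of like-level genes was taken in 20 bins of mean level. The members and gene lists were chosen with earlier results of these data known. Named genes were SQSTM1, members past 0.32, in each role the 2 highest, the 2 lowest and the brightest, the AP-1 genes with EGR1, DUSP1, DUSP6, MAP3K3 and MAP2K5, and in each list those past 1.5-fold or the 3 largest. Other genes were named after their values were seen. Alternatives were other centring, quantile normalization, probe set averages, filters, and a narrower member list.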

Additional observations from a re-analysis of the deposited data

How the results depend on the processing

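Over the 8 alternatives the median difference of the members ran from 0.03 (no filter) to 0.075 and kept its sign. Its place against the median of all genes did not hold throughout. At the 70th percentile it was 0.04, below the 0.05 of all genes kept. The number of members past 1.5-fold was 2 in all but the filter at the 70th percentile (6.67 on the log2 scale), where it was 1, without MAP2K4. The number that differed by more than 0.32 was 19 without a filter, of which 7 were higher and 12 lower, and 4 at the 70th percentile, with 1 higher and 3 lower, against 6 higher and 5 lower as reported. These are 21.6% of 88 members without a filter, 9.76% of 41 at the 70th percentile and 16.7% of 66 as reported, against 20.6%, 17.2% and 18.4% of all genes kept. The median of the MAP kinase genes, 0.02, turned to -0.02 with the median difference subtracted, to -0.028 with quantile normalization, to -0.028 with a lowess curve subtracted and to -0.08 without a filter. Without a filter the median of scaffolds and other symbol matches turned to -0.09 over 12 genes and that of the EGR genes to -0.02 over 3. At the 70th percentile the MAP2K median was 0.01 over 3 genes and the MAP3K median 0.01 over 11, and the MAP2K median was 0.14 with both values at or above the limit. The MKP median stayed between -0.205 and -0.115, and the Sprouty median between 0.15 (3 genes) and 0.25 (SPRY4 alone). The filters cannot change a single gene's difference, and subtracting the median shifts every gene alike, so these settings show nothing of its stability. With the mean over probe sets FOS was at -0.16 and DUSP5 at 0.05, and EGR1 and SPRY3 were below the limit and gave no value. Leaving out EGR1 and FOS, chosen after seeing the data, kept the median of the immediate early members at 0.13. List medians were taken as moved beyond 0.1 on the log2 scale, a tolerance with no replicate behind it. With 1 array per group no replicate could be left out, and no paired analysis was possible because each group has 1 sample. Genes with values near 5.35 have no detection call, so differences of MAP2K2, MAPK11, SPRY3 and EGR1 are limited by signal over background.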
